A study of Rattus norvegicus with 8 samples.

Results

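The transcripts of the NF-κB subunits were followed in primary rat chondrocytes, the cartilage cells of the femoral condyles, after 24 hours with tumour necrosis factor α (TNFα), with and without the MEK1/2 inhibitor U0126. The genes of the family are Nfkb1, Nfkb2, Rela, Relb and Rel. Their members on the array were taken as every probe set whose annotation names only 1 of these genes. This gave 4 of the 31042 probe sets tested, with 1 each for Relb (1376160_at), Nfkb2 (1375989_a_at), Nfkb1 (1370968_at) and Rela (1372853_at). No probe set carried the name Rel, so c-Rel was not analysed here, and 0 probe sets named a subunit together with another gene. Each of the 4 genes therefore rests on 1 probe set, with no second one to set beside it.

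The cells came from neonatal Sprague Dawley rats, grew as monolayers on plastic until confluent, and spent a night without serum before treatment. In the first group the cells received DMSO for 30 minutes and then 30 ng/ml TNFα for 24 hours (TNFα). In the second they received U0126 for 30 minutes before the same TNFα (U0126 + TNFα). The third received U0126 and then the protein vehicle (U0126), and the fourth DMSO and the vehicle (DMSO). There were 2 independent experiments with 1 array per treatment in each, 8 arrays in all, so every value below stands on 2 arrays per treatment, and the number of arrays limits the precision.

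NF-κB is a family of transcription factors that work as dimers and share the Rel homology region, through which they bind DNA and one another. RelA, RelB and c-Rel carry a transactivation domain. Nfkb1 and Nfkb2 encode the long precursors p105 and p100, which are cut to p50 and p52 and which in their uncut form hold other subunits in the cytoplasm. In the canonical route TNFα acts through the IκB kinase to free RelA and p50 from IκB proteins, whereas the noncanonical route runs through NIK, the processing of p100, and RelB with p52. In cartilage, NF-κB is known as a mediator of the response to inflammatory cytokines.

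Short stretches around the start sites of these genes are shown because they hold letters of the kind that NF-κB proteins bind. The sequences are RefSeq's, of the rat assembly GRCr8, and the windows searched ran from 250 bases before to 50 bases after each start. A window was read for Nfkb1, Nfkb2, Rel and Rela, and none for Relb. The motif was GGG, any 2 bases and then TTTCC, searched on both strands, so that a match on the opposite strand reads GGAAA, any 2 bases and then CCC. This form was chosen after other forms had been tried on the same windows. Each line below gives 30 bases on the strand of the gene, 5′ to 3′, with the match in capitals. The 30 bases of Nfkb2 lie at chr1:255108344-255108373 on the plus strand, and the match within them runs from base -20 to base -11 relative to the start. Those of Nfkb1 lie at chr2:226805440-226805469 on the minus strand, with the match from base 4 to base 13 after the start. Those of Rel lie at chr14:101922000-101922029 on the minus strand, and the match, from base -81 to base -72, reads on the opposite strand.
Nfkb2: tggtattttcGGGACTTTCCtaagagcact
Nfkb1: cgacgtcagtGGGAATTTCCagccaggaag
Rel: gtaggcagcgGGAAATCCCCccccgttccg

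The motif stood in 3 of the 4 windows, those of Nfkb2, Nfkb1 and Rel, against 1.53% of all 33469 windows and 1.62% of the 27457 genes that have one. Its form was chosen on these same windows, so the contrast of shares cannot measure an enrichment. Rel counts here although it has no probe set, and Relb has no window. The wider κB consensus stood in the same 3 windows, against 4.18% of all windows, and it takes in most of the same letters. Rela held neither form in its window. The 30 bases of 3 of the 5 other pathway genes that held the motif are shown beside them. They lie at chr6:78597084-78597113 on the minus strand for Nfkbia, with the match from base -31 to base -22, at chr6:136027029-136027058 on the plus strand for Traf3, with the match from base -10 to base -1, and at chr1:15544027-15544056 on the minus strand for Tnfaip3, with the match from base -67 to base -58. The matches of Nfkbia and Tnfaip3 read on the opposite strand, and Tnfaip3 holds a further match from base -55 to base -46.
Nfkbia: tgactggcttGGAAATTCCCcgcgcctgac
Traf3: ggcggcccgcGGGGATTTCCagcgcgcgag
Tnfaip3: tcacgtgactGGAAAGTCCCtcggaaatcc
A window was read for 39 of the 58 other pathway genes listed, and of these 39, 5 held the motif, the others being Nfkbiz and Ikbkg. The 3 genes shown rose with TNFα, as described below. The brighter probe set of Nfkbiz was 3.88-fold higher with TNFα in experiment 1 and 1.10-fold in experiment 2. Its dimmer one was at 0.92-fold and 0.88-fold, and Ikbkg had no probe set. Among receptors and adaptors of the canonical route, 0 of 9 windows held the motif. A match is a run of letters and not a measured binding site, and no effect of these letters on the transcripts was measured.

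The level of a transcript is given as its intensity, a summary over the probes of a probe set on a linear scale, after every array was centred on its median. Levels are compared between treatments within a gene and not between genes, since probe sets differ in brightness. A fold is the ratio of 2 arrays of the same experiment. limma tested each probe set on the log2 scale with the experiment as a block, and the adjusted p is the Benjamini-Hochberg value over all 31042, called below 0.05.

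TNFα raised all 4 measured subunit transcripts, Relb and Nfkb2 by the larger factors and Nfkb1 and Rela by smaller ones. Relb, which encodes the RelB subunit, had intensities of 2890.3 and 3096.5 in TNFα cells and 2485.1 and 2884.4 in U0126 + TNFα cells. It had 822.7 and 956.9 in U0126 cells, and 732.1 and 967.8 in DMSO cells, in experiments 1 and 2. The lowest Relb array with TNFα lay 2.57-fold above the highest array without it. How many of all probe sets separate in this way was not counted, here or for the genes below. TNFα over DMSO was 3.95-fold and 3.2-fold, a log2 fold change of 1.83 ± 0.08 (SE) with an adjusted p of 0.000284 by limma. Relb was brighter in experiment 2 in every treatment, by 1.07-fold to 1.32-fold, with the widest gap in DMSO cells.

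Nfkb2, which encodes p100 and p52, had intensities of 2391.4 and 2553.3 in TNFα cells and 2207.0 and 2383.8 in U0126 + TNFα cells. It had 872.7 and 900.5 in U0126 cells, and 900.9 and 943.8 in DMSO cells. Its experiments lay closest together of the 4 genes, within 1.08-fold in every treatment, and the arrays with and without TNFα were 2.34-fold apart at their nearest. TNFα over DMSO was 2.65-fold and 2.71-fold, a log2 fold change of 1.42 ± 0.06 (SE) with an adjusted p of 0.000262 by limma.

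**Figure D1:**
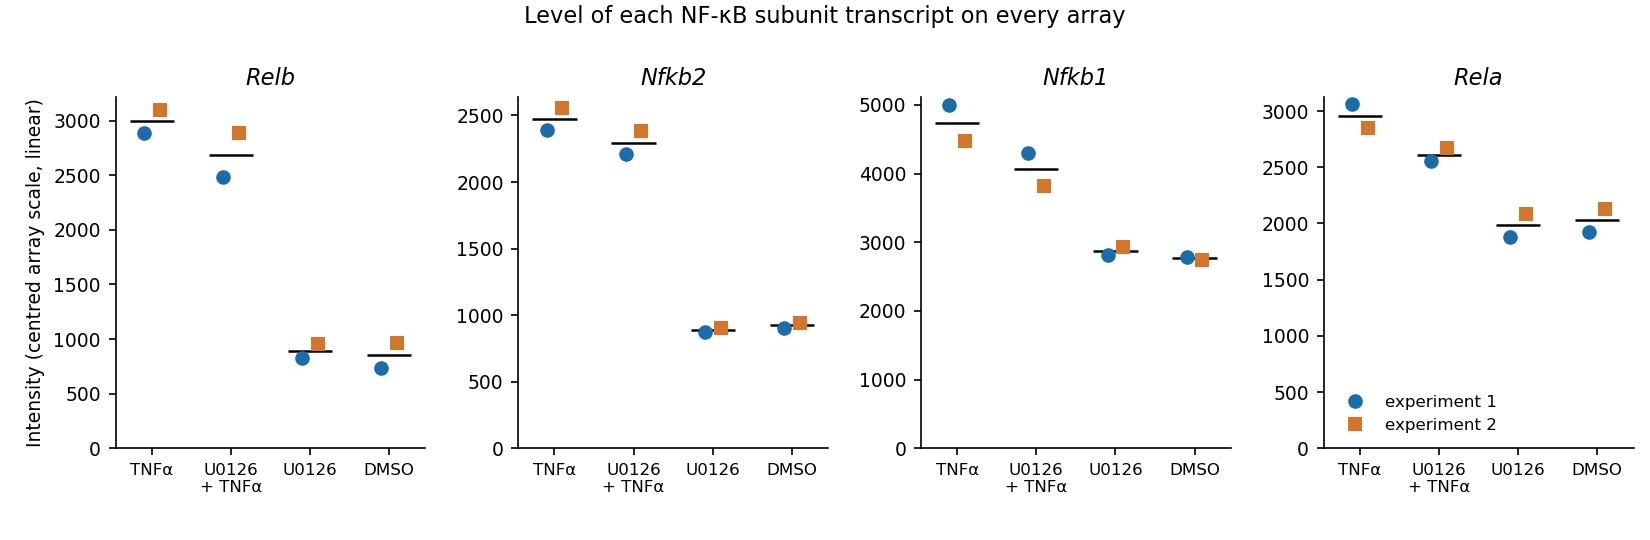
Intensity (linear, arrays centred on their median) of Relb, Nfkb2, Nfkb1 and Rela on each of the 8 arrays. Circles are experiment 1, squares experiment 2 and the black line is the mean of the 2 arrays of a treatment. The lowest array with TNFα over the highest without it is 2.57-fold for Relb, 2.34-fold for Nfkb2, 1.3-fold for Nfkb1 and 1.2-fold for Rela. How many of all probe sets separate in this way was not counted.

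Nfkb1, which encodes p105 and p50, had intensities of 5000.1 and 4475.6 in TNFα cells and 4304.9 and 3818.9 in U0126 + TNFα cells. It had 2815.1 and 2931.2 in U0126 cells, and 2791.7 and 2744.2 in DMSO cells. Unlike Relb and Nfkb2, it was lower in experiment 2 wherever TNFα was present. The lowest array with TNFα stood at 3818.9 and the highest without it at 2931.2. TNFα over DMSO was 1.79-fold and 1.63-fold, a log2 fold change of 0.77 ± 0.08 (SE) with an adjusted p of 0.00407 by limma.

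Rela, which encodes the RelA (p65) subunit of the canonical dimer, moved by the smallest factor of the 4. It had intensities of 3064.8 and 2851.2 in TNFα cells and 2555.0 and 2671.5 in U0126 + TNFα cells. It had 1883.6 and 2084.7 in U0126 cells, and 1926.6 and 2126.6 in DMSO cells. The lowest array with TNFα stood at 2555.0 and the highest without it at 2126.6, a narrow gap. TNFα over DMSO was 1.59-fold and 1.34-fold, a log2 fold change of 0.55 ± 0.08 (SE) with an adjusted p of 0.0148 by limma. The Rela call was lost without DMSO replicate 1 (log2 0.49, adjusted p 0.0774), without DMSO replicate 2 (0.60, adjusted p 0.054) and without TNFα replicate 1 (0.44, adjusted p 0.0685), whereas Relb, Nfkb2 and Nfkb1 kept their call without any 1 array.

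With limma, 4 of 4 measured subunits passed as higher for TNFα over DMSO, against 3.41% of all probe sets tested. Their median log2 fold change was 1.10, and that of all probe sets was -0.02. By the fold rule of the study's methods, a fold of just under 1.5 or more in both experiments, 3 of the 4 were higher, against 1.65% of all probe sets, and Rela missed it in experiment 2. Ordered by log2 fold change among the 31042 probe sets, Relb stood at rank 70, Nfkb2 at 145, Nfkb1 at 487 and Rela at 851.

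The responses were also set against each other within the same arrays, as the difference of 2 genes' log2 fold changes with a 95% interval that is not adjusted for the 12 intervals computed. Relb exceeded Nfkb2 by 0.41 (0.20 to 0.62), Nfkb1 by 1.06 (0.81 to 1.3) and Rela by 1.28 (1.04 to 1.52) for TNFα over DMSO. Nfkb2 exceeded Nfkb1 by 0.65 (0.40 to 0.89) and Rela by 0.88 (0.63 to 1.12). Nfkb1 and Rela differed by 0.23, with an interval of -0.01 to 0.47 that takes in 0. The probe sets of the subunits thus fell in the order Relb, Nfkb2, and then Nfkb1 and Rela, whose order was not settled by these arrays. With 1 probe set per gene, the intervals do not cover differences between probe sets of the same gene. Those of Bcl3, described below, gave log2 fold changes of 1.12, 1.40 and 2.53 for TNFα over DMSO.

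**Figure D2:**
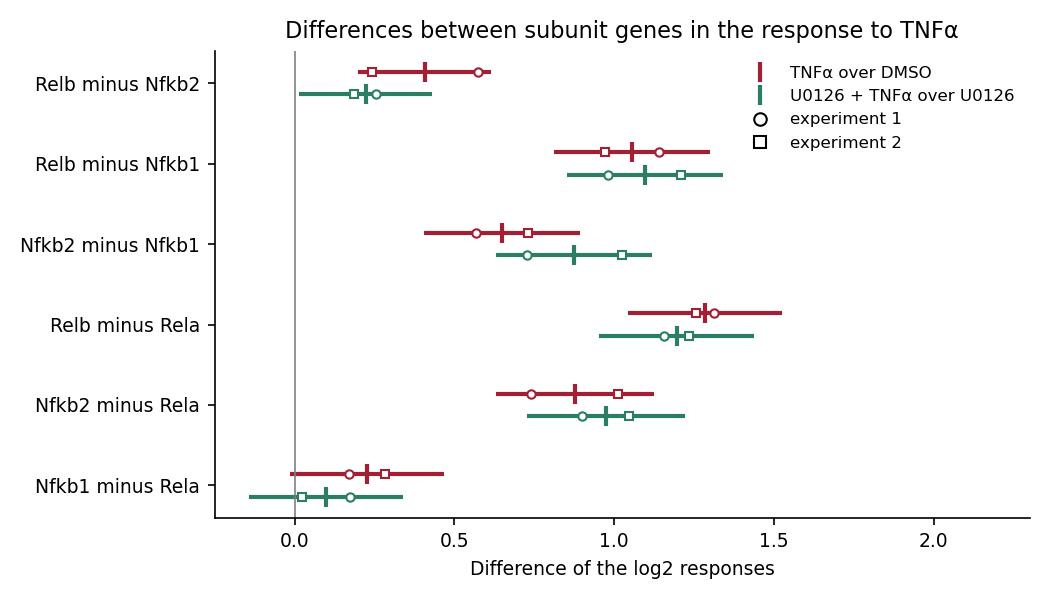
Difference between 2 subunit genes, with 1 probe set each, in their log2 response, for TNFα over DMSO (red) and for U0126 + TNFα over U0126 (green). Ticks are the estimates, bars the 95% intervals, circles experiment 1 and squares experiment 2. The intervals of Nfkb1 minus Rela take in 0 in both responses, and the other 10 do not.

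With MEK1/2 inhibited, TNFα again raised Relb and Nfkb2. For U0126 + TNFα over U0126, Relb was 3.02-fold and 3.01-fold higher, a log2 fold change of 1.59 ± 0.08 (SE) with an adjusted p of 0.000874 by limma. Nfkb2 was 2.53-fold and 2.65-fold higher, a log2 fold change of 1.37 ± 0.06 (SE) with an adjusted p of 0.00067 by limma. Both kept this call without any 1 array.

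Nfkb1 was 1.53-fold and 1.3-fold higher in U0126 + TNFα cells than in U0126 cells, a log2 fold change of 0.50 ± 0.08 (SE) with an adjusted p of 0.039 by limma. That call rested on all the arrays of this comparison and of DMSO. Its adjusted p was 0.299 without U0126 replicate 1, 0.118 without U0126 replicate 2, 0.245 without U0126 + TNFα replicate 1, 0.183 without U0126 + TNFα replicate 2, and 0.0631 without either DMSO array. Over these arrays left out, its log2 fold change lay between 0.41 and 0.59. Rela was 1.36-fold and 1.28-fold higher, with a log2 fold change of 0.40 (95% interval 0.21 to 0.59), and did not pass (adjusted p 0.082 by limma). It did pass without either TNFα array, an array that is not in this comparison but adds to the estimate of the spread (adjusted p 0.0467).

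In this comparison limma called 3 of the 4 subunits as higher, against 0.831% of all probe sets. The median log2 fold change was 0.93 over the 4 and -0.01 over all probe sets. By the fold rule Relb and Nfkb2 were higher, 2 of the 4, against 0.905% of all probe sets. The ranks were 46 for Relb, 65 for Nfkb2, 500 for Nfkb1 and 727 for Rela among 31042. The order between these probe sets was as before, with Relb 0.22 above Nfkb2 (0.01 to 0.43), and 1.10 (0.85 to 1.34) above Nfkb1 on the log2 scale. Nfkb1 and Rela differed by 0.10 (-0.14 to 0.34).

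**Figure D3:**
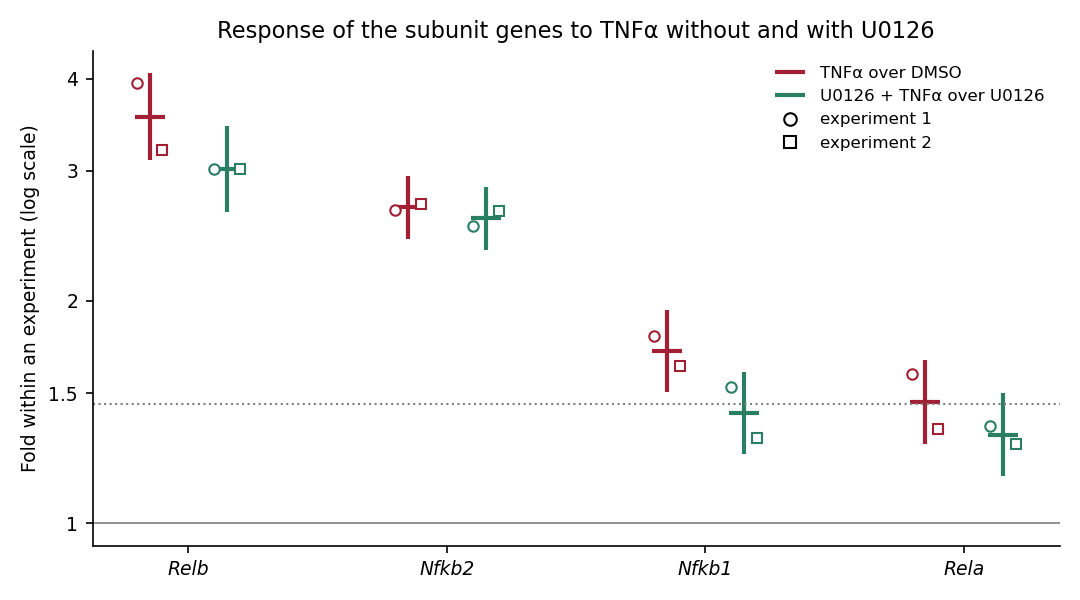
Fold within each experiment (log scale) of the 4 subunit genes for TNFα over DMSO (red) and for U0126 + TNFα over U0126 (green). Circles are experiment 1, squares experiment 2, ticks the geometric mean with limma's 95% interval as a bar, and the dotted line is the threshold of the fold rule, just under 1.5. Relb and Nfkb2 lie above the line in both responses and both experiments, Nfkb1 crosses it at 1.3-fold in experiment 2 with U0126, and Rela is above it only at 1.59-fold, for TNFα over DMSO in experiment 1.

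Cells given both agents were also set against DMSO cells, a comparison that shares its arrays with those above. There Relb was 3.40-fold and 2.98-fold higher (adjusted p 0.000578 by limma), Nfkb2 2.45-fold and 2.53-fold (adjusted p 0.000516), and Nfkb1 1.54-fold and 1.39-fold (adjusted p 0.0183). Rela was 1.33-fold and 1.26-fold higher with an adjusted p of 0.0646. Thus 3 of 4 subunits passed, against 2.17% of all probe sets as higher. The Nfkb1 call was lost without DMSO replicate 1 (0.0638) or 2 (0.0976) and without U0126 + TNFα replicate 1 (0.116) or 2 (0.113), and Rela passed without either TNFα array (0.0425).

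U0126 alone left the 4 transcripts close to their DMSO level. U0126 over DMSO was 1.12-fold and 0.99-fold for Relb, 0.97-fold and 0.95-fold for Nfkb2, 1.01-fold and 1.07-fold for Nfkb1, and 0.98-fold and 0.98-fold for Rela. None passed limma, 0 of 4 against 0.058% of all probe sets in either direction. At an unadjusted p under 0.05, 0 of the 4 and 4118 of all probe sets stood apart. The 95% intervals of the folds were 0.92 to 1.21 for Relb, 0.87 to 1.06 for Nfkb2, 0.91 to 1.18 for Nfkb1 and 0.86 to 1.12 for Rela.

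The level reached in TNFα-treated cells was slightly lower with U0126 in each gene and each experiment, but no gene passed the adjusted test. U0126 + TNFα over TNFα was 0.86-fold and 0.93-fold for Relb, with a log2 fold change of -0.16 (95% interval -0.36 to 0.04), and 0.92-fold and 0.93-fold for Nfkb2, with -0.11 (-0.25 to 0.03). It was 0.86-fold and 0.85-fold for Nfkb1, with -0.22 (-0.41 to -0.04), and 0.83-fold and 0.94-fold for Rela, with -0.18 (-0.37 to 0.01). limma called 0 of 4, against 0.254% of all probe sets in either direction. At an unadjusted p under 0.05, 1 of the 4 stood apart, Nfkb1 with p 0.0246 and an adjusted p of 0.313, beside 3927 of all probe sets. All 4 were lower in both experiments, as were 28.6% of all probe sets.

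The difference between the response to TNFα with U0126 and the response without it was tested as an interaction on the log2 scale. It was -0.24 (95% interval -0.51 to 0.04) for Relb, -0.05 (-0.25 to 0.15) for Nfkb2, -0.28 (-0.54 to -0.02) for Nfkb1 and -0.15 (-0.42 to 0.12) for Rela. Both experiments gave a negative difference in each gene, though only -0.07 and -0.03 for Nfkb2. The share of all probe sets negative in both experiments was not computed for this difference. limma called 0 of 4, against 0.0% of all probe sets in either direction, and at an unadjusted p under 0.05 it set apart 1 of the 4, Nfkb1 with p 0.0408 (adjusted p 0.537), and 2833 of all probe sets. As a share of the log2 response to TNFα, the response left with U0126 was 96.4% for Nfkb2 (95% and 97.8% in the 2 experiments) and 87.1% for Relb (80.5% and 94.9%). It was 73.0% for Rela (65.7% and 84.6%) and 64.3% for Nfkb1 (72.9% and 54.1%). With 2 arrays per treatment, sizes of this difference within a gene's 95% interval cannot be told apart, and a difference that did not pass is not shown to be absent.

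**Figure D4:**
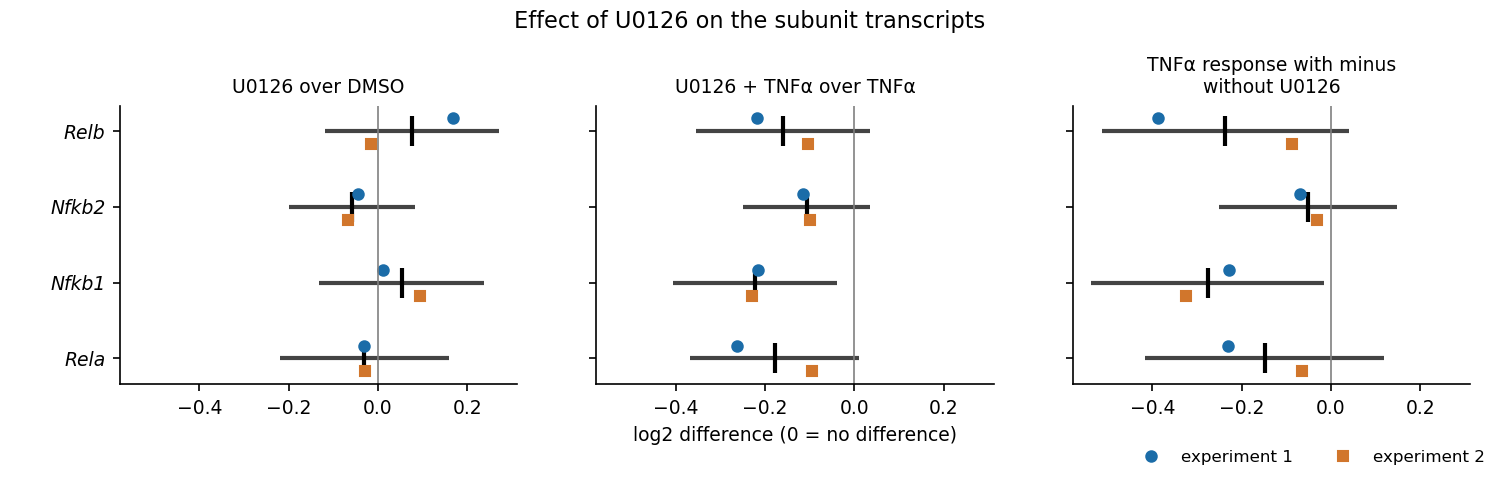
Effect of U0126 on the 4 subunit transcripts on the log2 scale, as U0126 over DMSO, as U0126 + TNFα over TNFα, and as the difference between the TNFα responses with and without U0126. Ticks are the estimates, bars limma's 95% intervals, circles experiment 1 and squares experiment 2. In the middle and right panels both experiments lie below 0 for every gene. So do 28.6% of all probe sets in the comparison of the middle panel, a share not computed for the right. The interval of Nfkb1 alone leaves out 0 in these 2 panels (-0.41 to -0.04 and -0.54 to -0.02, neither adjusted).

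Ordered by mean intensity, each gene was highest in TNFα cells, at 2993.4 ± 146 for Relb, 2472.4 ± 114 for Nfkb2, 4737.9 ± 371 for Nfkb1 and 2958.0 ± 151 for Rela (SD, n = 2 arrays). U0126 + TNFα cells followed, at 2684.8 ± 282 for Relb, 2295.4 ± 125 for Nfkb2, 4061.9 ± 344 for Nfkb1 and 2613.2 ± 82.4 for Rela. U0126 cells had 889.8 ± 94.9 for Relb, 886.6 ± 19.7 for Nfkb2, 2873.1 ± 82.1 for Nfkb1 and 1984.1 ± 142 for Rela. DMSO cells had 849.9 ± 167 for Relb, 922.3 ± 30.3 for Nfkb2, 2767.9 ± 33.6 for Nfkb1 and 2026.6 ± 141 for Rela. The neighbours U0126 and DMSO did not pass for any of the 4 genes and changed places between them, and the neighbours TNFα and U0126 + TNFα did not pass either.

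The subunits were read beside other genes of the pathway. Of 52 such genes with a probe set, 12 rose and 1 fell with TNFα against DMSO, and 9 rose with U0126 + TNFα against U0126. Of all probe sets, 3.41% passed as higher and 1.78% as lower in the first comparison, and 0.831% as higher in the second. In the IκB family, which holds NF-κB dimers back or tunes them in the nucleus, 3 of 6 measured genes rose with TNFα, with a median log2 fold change of 0.84 over the 6. Nfkbia, the gene of the main inhibitor IκBα, had the largest value in that family and rose 7.65-fold and 6.19-fold with TNFα (adjusted p 0.000151 by limma). It rose 7.14-fold and 5.80-fold for U0126 + TNFα over U0126 (adjusted p 0.000478). Bcl3, a nuclear family member that binds p50 and p52 dimers, rose 2.98-fold and 2.35-fold with TNFα (adjusted p 0.000948) and 1.82-fold and 1.89-fold with U0126 present (adjusted p 0.00952). Its 3 probe sets all rose but differed in size, and the one that moved most gave 7.29-fold and 4.58-fold for TNFα over DMSO, and 3.51-fold and 3.12-fold for U0126 + TNFα over U0126. Nfkbib, the gene of IκBβ, rose 1.64-fold and 1.44-fold with TNFα (adjusted p 0.0125), and with U0126 it was 1.40-fold and 1.44-fold higher with an adjusted p of 0.051. Nfkbiz, another nuclear member and one whose window held the motif, was 3.88-fold higher in experiment 1 and 1.10-fold in experiment 2, and did not pass (adjusted p 0.169). Its dimmer probe set went the other way, at 0.92-fold and 0.88-fold, and did not pass either (adjusted p 0.177 by limma).

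Among the IκB kinases and the kinases above them, 2 of 10 measured genes rose with TNFα, with a median log2 fold change of 0.12. Ikbkb, the gene of IKKβ, rose 2.13-fold and 1.76-fold (adjusted p 0.00301 by limma) and 1.61-fold and 1.5-fold for U0126 + TNFα over U0126 (adjusted p 0.0263). Map3k8, which encodes the kinase Tpl2 that binds p105, rose 8.06-fold and 2.13-fold with TNFα (adjusted p 0.046 by limma). Its probe set was dim, at 62.8 and 69.6 in DMSO cells. With U0126 present Map3k8 was 2.68-fold and 1.44-fold higher and did not pass (log2 fold change 0.98, adjusted p 0.423). However, limma called no difference between the responses with and without U0126 in any probe set. A further probe set of Ikbkb, at a low intensity, did not pass in either comparison (log2 0.37, adjusted p 0.0797 for TNFα over DMSO).

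Among receptors and adaptors of the canonical route, 3 of 13 rose with TNFα, and the same 3 rose with U0126 present. They were Birc3, the gene of the ubiquitin ligase cIAP2, at 7.42-fold and 5.50-fold (adjusted p 0.000239), Birc2, the gene of cIAP1, at 2.32-fold and 1.85-fold (adjusted p 0.00638), and the adaptor Traf2 at 1.48-fold and 1.73-fold (adjusted p 0.0058), all for TNFα over DMSO by limma. The probe sets of the adaptor Traf1 disagreed, the brighter at a log2 fold change of -0.17 (adjusted p 0.183) and the dimmer at 1.59 (adjusted p 0.023). In the noncanonical list Traf3, an adaptor that marks NIK for degradation, was the 1 of 5 that rose, at 1.70-fold and 1.73-fold with TNFα (adjusted p 0.00154) and 1.74-fold and 1.66-fold with U0126 present (adjusted p 0.00388). Its further, dim probe set did not pass in either comparison (log2 0.38, adjusted p 0.101 for TNFα over DMSO).

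Of 7 measured genes that restrain the pathway, 3 rose and 1 fell with TNFα. Tnfaip3, the gene of the ubiquitin-editing enzyme A20, rose 6.55-fold and 5.39-fold (adjusted p 0.000151 by limma), and Tnip1, which encodes an A20-binding protein, rose 3.97-fold and 3.12-fold (adjusted p 0.000576). Both also rose with U0126 present, Tnfaip3 by 4.55-fold and 3.80-fold and Tnip1 by 2.87-fold and 2.41-fold. Tnip2 rose 1.93-fold and 1.28-fold (adjusted p 0.0449). Pdlim2, which encodes a ubiquitin ligase for nuclear RelA, was at 0.72-fold and 0.80-fold (adjusted p 0.0224). Both probe sets of the deubiquitinase gene Cyld were higher with TNFα in both experiments, but only the dimmer passed. The brighter stood at a log2 fold change of 0.28 (adjusted p 0.109) and the dimmer at 0.48 (adjusted p 0.0474). Of the 6 nuclear cofactors and the 5 NFAT genes, which share the Rel homology region, 0 passed with TNFα (0 and 2 at an unadjusted p under 0.05), with medians of 0.03 and -0.08 on the log2 scale. The cofactors with the smallest p were Ep300 at a log2 fold change of 0.15 and Hdac2 at -0.10. Among the NFAT genes they were Nfat5 at 0.25 (adjusted p 0.0984) and Nfatc1 at -0.30 (adjusted p 0.17).

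**Figure D5:**
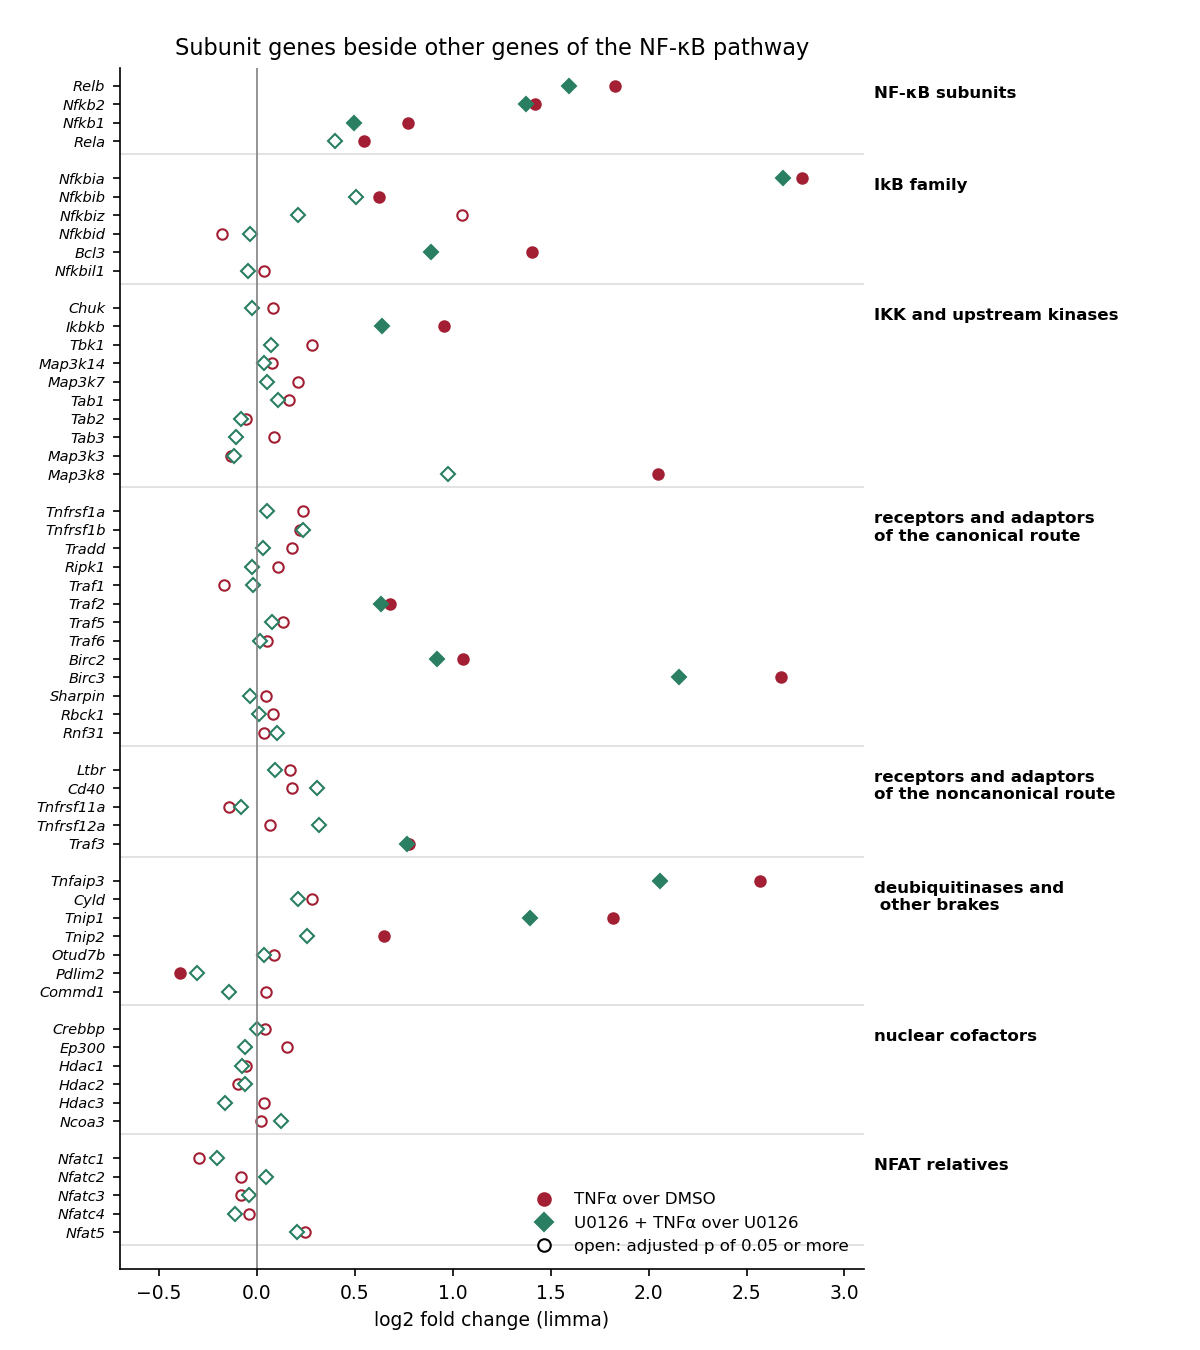
log2 fold change (limma) of the 4 subunit genes and of 52 other genes of the NF-κB pathway, grouped by list, 1 probe set per gene. Red circles are TNFα over DMSO and green diamonds U0126 + TNFα over U0126, filled where the adjusted p was under 0.05. Filled symbols stand for 4 subunits and 13 other genes in red, and for 3 subunits and 9 other genes in green, with Nfkbia farthest to the right at 2.78 for TNFα over DMSO.

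Calls for 8 of these 13 genes, Nfkbia, Bcl3, Ikbkb, Traf2, Birc3, Traf3, Tnfaip3 and Tnip1, held in TNFα over DMSO without any 1 array. Without DMSO replicate 1 the count of pathway genes was 8, and Birc2 was lost (adjusted p 0.0536). Nfkbib was lost without DMSO replicate 1 (0.0685) or 2 (0.0654) and without TNFα replicate 1 (0.0501). With U0126 present it passed without either TNFα array (0.0236). Map3k8, Tnip2 and Pdlim2 lost their call without each of the other arrays in turn and kept it only without TNFα replicate 2, with adjusted p values from 0.063 to 0.146 for Map3k8, from 0.0772 to 0.139 for Tnip2 and from 0.0545 to 0.129 for Pdlim2. For U0126 + TNFα over U0126 the count was 3 and 4 without U0126 replicates 1 and 2, and 3 and 4 without U0126 + TNFα replicates 1 and 2. Nfkbia, Birc3 and Tnfaip3 kept that call. Bcl3 (0.091 to 0.141), Ikbkb (0.115 to 0.241), Traf2 (0.132 to 0.169), Birc2 (0.0765 to 0.183) and Traf3 (0.0567 to 0.0761) lost it without any 1 of these 4 arrays. Tnip1 lost it without U0126 replicate 1 (0.0573) or U0126 + TNFα replicate 1 (0.0508).

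For each subunit the 3 genes with the most similar pattern were named by Pearson's r over the 8 arrays, after the mean of each experiment was removed. They were sought among 3905 genes whose log2 values span at least 0.5, with the subunit genes themselves left out. Such correlations share their arrays and are a description. The pattern of Relb was most like those of Icam1, an adhesion molecule for leukocytes (r = 0.9983), Nfkbia (0.9975) and Nab1 (0.9957). That of Nfkb2 was most like Traf3 (0.9988), S100a3 (0.9973) and Nfkbia (0.9973). Nfkb1 was closest to Ly75, an endocytic receptor (0.9983), Vopp1 (0.9964) and Brd9 (0.9957). Brd9 did not pass for TNFα over DMSO (1.21-fold, adjusted p 0.0538 by limma). Rela was closest to Rftn1, a lipid raft protein (0.9989), Adprm (0.997) and Rassf9 (0.9968). An r over 0.98 was reached by 53 genes for Relb, 43 for Nfkb2, 59 for Nfkb1 and 75 for Rela, so the genes named are the top of a longer row.

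The labelled cell type was checked on its markers. Of 9 chondrocyte markers measured, 6 fell with TNFα, Acan among them. None of the 3 probe sets of Col2a1 passed. The brightest, which stands for it, was at 0.93-fold and 0.91-fold (adjusted p 0.273 by limma). The others were at 0.668-fold and 0.675-fold (adjusted p 0.0896), and at 1.03-fold and 0.585-fold (adjusted p 0.349). The summed intensity of the 9 markers was 142060 and 94939 in TNFα cells and 184894 and 121939 in DMSO cells. It was 180864 and 123243 in U0126 + TNFα cells and 193479 and 135329 in U0126 cells, and in that comparison 0 of 9 passed (3 at an unadjusted p under 0.05). The fibroblast list, with Col1a1, was also bright, at 96800 and 118440 in TNFα cells and 90091 and 115560 in DMSO cells, and Pdgfra rose. Of 10 macrophage and leukocyte markers, which mark cells in which NF-κB genes are well expressed, Cd68 and Fcgr2b rose with TNFα and 8 did not pass. Fcgr2b was dim, at 65.8 and 57.8 in TNFα cells and 34.6 and 38.6 in DMSO cells. The summed intensity of the 10 markers was 3911 and 4438 in TNFα cells and 3139 and 4291 in DMSO cells. The leukocyte marker Ptprc, at a mean intensity of 66.6, was at 0.98-fold and 0.97-fold. With U0126 present the macrophage sum was 3049 and 3689 in U0126 + TNFα cells and 3135 and 3733 in U0126 cells. The part of these cells in the rise of the subunits was not tested. Of 3 endothelial markers, with summed intensities of 387 and 681 in TNFα cells and 395 and 632 in DMSO cells, 0 passed (1 at an unadjusted p under 0.05). In bulk RNA of this kind, fewer cells of a type and less RNA per cell cannot be told apart. No detection calls were used, so whether a low intensity lies above background is not known.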

How the data were processed

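Total RNA of primary rat chondrocytes from 4 treatments in 2 independent experiments was hybridized to 8 Affymetrix RAT230_2.0 arrays. The deposited values are linear summary intensities, 1 per probe set and array, for which the submitters' notes name RMA with no version, so the authors' background correction and summary are already in them. They lie between 15.25 and 34845, and the array medians between 365.1 and 378.2. Probe sets were named from the platform's annotation of 2016, where 20826 carried 1 symbol, 436 several and 9780 none, and 57 of the 31099 were controls and were left out.

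After log2, each array was centred on its median. All 8 arrays entered 1 fit of limma 3.58.1 (R 4.3.3) with terms for treatment and experiment (residual degrees of freedom 3, prior 3.913, median residual SD 0.07521) for 6 comparisons. The experiment is the replicate number in the labels, and the methods set each array against the control of its own experiment. Deviations of arrays with the same number correlated at 0.728 to 0.829. The fit was tested on simulated data. The p values of the fit set each difference against the spread left between these arrays after the terms for treatment and experiment. That spread is estimated in part from all probe sets. The intervals between pairs of subunits came from the same model on the difference of 2 probe sets and were added after the data were seen. Their spread is estimated in part from all probe sets minus the same subunit. These differences share that subunit's values, so the width of an interval depends on which subunit is subtracted.

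Named were all subunit probe sets, pathway genes that passed for TNFα over DMSO or U0126 + TNFα over U0126 (else the 2 of a list with the smallest p), and the 3 genes most like each subunit. Names outside this rule, such as Nfkbiz, Traf1, Cyld and Ptprc, were chosen after their values were seen. Where a gene has several probe sets, the brightest on average stands for it. The members and lists were chosen with earlier results of these data known. The alternatives were no centring, quantile normalization, a filter on the dimmest 40 percent, a trended or robust prior, fitting only the arrays compared, no replicate block, fold thresholds of 1.3 and 2, and leaving out each array. Python 3.11.15 made the tables and figures.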

Additional observations from a re-analysis of the deposited data

How the results depend on the processing

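Nfkb2 and Relb kept their calls for TNFα over DMSO under all 15 alternatives. Without the replicate block, which treats the experiments as unpaired, limma called 2 of the 4 subunits for TNFα over DMSO, 1 for U0126 + TNFα over U0126 and 1 for U0126 + TNFα over DMSO, where the fit with the block called 4, 3 and 3. Pathway genes then numbered 5, 2 and 2, against 13, 9 and 10. Over all probe sets, 25 passed for TNFα without the block, against 1611 with it. Calls lost in this way were Nfkb1 (log2 0.77, adjusted p 0.0887) and Rela (0.55, 0.154) for TNFα over DMSO, and Relb (1.59, 0.125) and Nfkb1 (0.50, 0.477) for U0126 + TNFα over U0126. For U0126 + TNFα over DMSO they were Relb (1.67, adjusted p 0.101) and Nfkb1 (0.55, 0.259).

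When only the arrays compared were fitted, Rela did not pass for TNFα over DMSO (0.55, adjusted p 0.0815) and did for U0126 + TNFα over U0126 (0.40, adjusted p 0.0341). Leaving out each array in turn moved Rela between 0.44 and 0.66 for TNFα over DMSO and between 0.34 and 0.46 for U0126 + TNFα over U0126, and Nfkb1 between 0.41 and 0.59 in the second. Pathway genes numbered 8 to 14 for TNFα over DMSO and 3 to 10 for U0126 + TNFα over U0126. The log2 effect of U0126 alone, which never passed, ran from -0.037 to 0.189 for Relb, from -0.035 to 0.142 for Nfkb1 and from -0.087 to 0.025 for Rela. Its sign thus changed between alternatives for these 3 genes. For Nfkb2 it ran from -0.114 to -0.034, but the 95% interval of the main fit, -0.20 to 0.08, takes in 0. With quantile normalization the difference of the responses of Nfkb2 was 0.02, against -0.05. Nfkbib, at an adjusted p of 0.051 for U0126 + TNFα over U0126, passed under 7 of 15 alternatives (0.0153 to 0.0497). The cause of these changes was not tested. A fold threshold of 1.3 took in 4 subunits for TNFα over DMSO and 3 for U0126 + TNFα over U0126, and a threshold of 2 took in 2 and 2.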
